A study of Homo sapiens with 28 samples.

Results

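The NF-κB feedback circuit was followed through 10 genes in the RNA-seq libraries of 2 human colorectal cancer cell lines, MDST8 and LoVo, in which TWIST1 had been targeted. The genes are TNFAIP3, MIR3142HG, NFKBIA, NFKBIE, NFKB1, NFKB2, RELB, BIRC3, TNFAIP2 and ICAM1, matched by gene symbol to 10 of the 62703 genes in the count tables. TNFAIP3 and MIR3142HG were chosen by these measured values, since their counts were higher in every TWIST1 knockout clone of MDST8 than in WT cells, so their values are given below as a description and without a test. The question put to the other 8 genes was whether they follow TNFAIP3 and MIR3142HG over the 8 groups of libraries. All 10 genes were listed with earlier results of these data known, so the tests on the 8 are not free of that choice.

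Each group had 3 libraries. In MDST8 they were WT cells and 5 clones that had gone through CRISPR-Cas9 knockout of TWIST1, each grown from a single cell. The clones are called 1.1, 2.2, 3.2, 3.5 and 3.6 after their labels TG1, TG2 and TG3, and the last 3 carry the label TG3. A clone is 1 line, so its 3 libraries do not measure how clones of the same kind vary. All 5 clones are compared with the same 3 WT libraries, so their agreement is not independent. The titles name those cells only as WT, so effects of the knockout and of growth from a single cell cannot be told apart. LoVo libraries were labelled either shRNA control, with a wild-type genotype, or TWIST1 shRNA, and are called control-labelled and shRNA-labelled below. The labels name the same serum-containing medium for all samples and no cytokine treatment. TWIST1 ChIP-seq gave 1 peak list for each cell line. The labels do not say whether libraries of a group came from separate cultures, so the p-values measure only the spread between these libraries, which may be technical.

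NF-κB transcription factors are dimers of REL family proteins that inhibitors of the IκB family hold in the cytoplasm. Signals from TNF, IL-1 and Toll-like receptors activate IκB kinase, the inhibitor is degraded, and the dimer enters the nucleus and switches on its targets. Several targets then act back on the pathway. NFKBIA and NFKBIE encode IκB inhibitors, TNFAIP3 encodes a ubiquitin-editing enzyme that dampens signalling upstream of IκB kinase, and MIR3142HG is a long noncoding RNA that hosts miR-146a, a microRNA with the signalling proteins IRAK1 and TRAF6 among its known targets.

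The stretches of DNA just before the transcription starts are shown because they hold the letters that NF-κB dimers recognise. RefSeq (GRCh38.p14) promoters were matched for 8 of the 10 genes, 11 promoters in all; NFKBIE and RELB had no entry in the table. The κB consensus, searched on both strands over 250 bases before and 50 after each start, occurred in 7 of the 11 promoters, which belong to 6 of the 8 genes, and in 11.3% of all 35116 RefSeq promoters of this length. Capitals mark the matches in the 200 bases before the start, written 5′ to 3′ along the transcribed strand; the longer run of capitals in the first NFKB2 promoter is a pair of overlapping matches.
TNFAIP3, chr6:137867059-137867258, plus strand: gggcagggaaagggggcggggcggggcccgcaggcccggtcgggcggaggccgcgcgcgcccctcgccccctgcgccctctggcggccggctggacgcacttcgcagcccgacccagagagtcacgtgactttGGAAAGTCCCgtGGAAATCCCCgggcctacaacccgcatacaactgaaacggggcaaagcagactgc
MIR3142HG, chr5:160468051-160468250, plus strand: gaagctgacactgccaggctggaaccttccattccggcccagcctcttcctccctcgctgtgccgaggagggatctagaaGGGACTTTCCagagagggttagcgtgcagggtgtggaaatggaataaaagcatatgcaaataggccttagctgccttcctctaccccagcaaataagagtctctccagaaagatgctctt
NFKBIA, chr14:35404750-35404949, minus strand: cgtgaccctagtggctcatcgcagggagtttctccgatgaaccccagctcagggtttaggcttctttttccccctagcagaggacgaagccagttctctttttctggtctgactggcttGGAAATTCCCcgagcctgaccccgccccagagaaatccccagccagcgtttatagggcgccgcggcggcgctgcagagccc
NFKB1, chr4:102501159-102501358, plus strand: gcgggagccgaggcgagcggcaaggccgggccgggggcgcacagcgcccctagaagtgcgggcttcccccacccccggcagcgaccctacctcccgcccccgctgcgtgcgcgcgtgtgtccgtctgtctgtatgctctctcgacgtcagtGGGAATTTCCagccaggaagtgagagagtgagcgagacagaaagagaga
NFKB2, chr10:102394378-102394577, plus strand: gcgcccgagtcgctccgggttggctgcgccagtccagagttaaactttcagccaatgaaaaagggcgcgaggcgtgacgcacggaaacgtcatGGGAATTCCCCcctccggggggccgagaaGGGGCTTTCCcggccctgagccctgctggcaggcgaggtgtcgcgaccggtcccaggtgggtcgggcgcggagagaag
NFKB2, chr10:102395505-102395704, plus strand: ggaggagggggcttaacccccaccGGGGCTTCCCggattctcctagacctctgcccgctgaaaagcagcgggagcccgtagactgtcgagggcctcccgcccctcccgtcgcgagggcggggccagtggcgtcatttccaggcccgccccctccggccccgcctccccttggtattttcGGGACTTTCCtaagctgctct
BIRC3, chr11:102317284-102317483, plus strand: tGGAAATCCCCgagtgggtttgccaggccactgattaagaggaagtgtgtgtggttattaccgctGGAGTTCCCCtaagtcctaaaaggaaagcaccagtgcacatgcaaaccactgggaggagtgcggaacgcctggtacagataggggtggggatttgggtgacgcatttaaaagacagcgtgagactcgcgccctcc

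No κB consensus was found in the windows of TNFAIP2 and ICAM1, which says only that these letters are not within 250 bases before and 50 after the listed starts. Of the E-box letters that bHLH factors such as TWIST1 bind, CATCTG was in none of the 11 promoters and in 14.7% of all promoters, and the general form CANNTG was in 6 of the 11 and in 68.7% of all. A match is a stretch of letters and was not measured as a binding site here. In the count tables (hg38) NFKBIA lies at chr14:35401079-35404749, NFKBIE at chr6:44258166-44265788, both on the minus strand. On the plus strand are NFKB1 at chr4:102501330-102617302, NFKB2 at chr10:102394110-102402524, RELB at chr19:45001461-45038192, BIRC3 at chr11:102317450-102339403, TNFAIP2 at chr14:103121476-103137439 and ICAM1 at chr19:10271093-10286615. The RefSeq start of MIR3142HG lies 29657 bp downstream of the 5′ end that the count table gives for this gene.

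MIR3142HG runs from 160438594 to 160487426 on the plus strand of chromosome 5. The microRNAs it hosts are shown because they are the products by which it is known, with the seed, bases 2 to 8 from the 5′ end, in capitals. The hairpin of miR-3142 lies in an intron of MIR3142HG and that of miR-146a in an exon, and the 3 mature sequences have different seeds.
hsa-miR-146a-5p: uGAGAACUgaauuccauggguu
hsa-miR-146a-3p: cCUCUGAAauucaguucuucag
hsa-miR-3142: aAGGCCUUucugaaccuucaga
The libraries were made from polyA RNA, which measures the host transcript and not the mature microRNAs. The count row of MIR146A held 0 in every library. A fragment that overlaps the exons of more than 1 gene was not counted, and 4.16% of the exon bases of MIR3142HG are shared with MIR146A.

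Total counts ran from 17252883 to 22217009 in the 18 MDST8 libraries and from 16567606 to 20889529 in the 6 LoVo libraries. TWIST1 itself had 797 to 1034 counts in WT and 553 to 1195 in the clone libraries, and its RNA passed the thresholds below only in clone 2.2, with a log2 fold change, or log2 ratio, of -0.65 (standard error, SE, of 0.07, adjusted p = 2.37e-09 by edgeR). In LoVo the counts of TWIST1 run against the labels, with 73 to 93 in the shRNA-labelled libraries and 0 in each control-labelled library. Every LoVo direction given here follows the labels. Among the epithelial markers, MDST8 had CDX2 and CDH1 at or near 0 CPM (at most 0.05 and 0.06), but KRT18 at 47.3 to 121 and KRT8 at 9.89 to 19.8 CPM. Among the mesenchymal markers it had VIM at 3308 CPM or more, but COL1A2 at most at 1.48 CPM. LoVo had CDH1 at 169 CPM or more. PTPRC and CD3E, markers of leukocytes, reached at most 0.15 CPM in either line, with 5 leukocyte markers summing to at most 3.81 CPM in any library. shRNA-labelled LoVo libraries also differed from the control-labelled ones in the summed level of 9 epithelial markers, 4566 to 5184 against 8035 to 8337 CPM. The sum of 7 mesenchymal markers was lower there too, 102 to 122 against 181 to 185 CPM. The share of mitochondrially encoded counts was 5.47 to 10.9% against 3.49 to 3.96%. The first shRNA-labelled library stood apart from the other two of its group, with a chi-square per gene of 20.6 and 31.5 against them and 4.44 between them; without it the LoVo calls on the 8 genes stayed as they were and their log2 ratios moved by at most 0.14, ICAM1 going from -0.05 to 0.041, while MIR3142HG went from -2.46 to -3.01. In MDST8, clone 3.5 had a mitochondrial share of 3.89 to 4.37% against 2.398 to 3.05% in WT, 9 epithelial markers summing to 129 to 135 against 70.1 to 76.1 CPM, and 7 mesenchymal markers summing to 15937 to 16902 against 9370 to 10022 CPM. The mitochondrial share was 3.24 to 3.68% in clone 1.1. The part of these differences in the results was not tested.

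TNFAIP3 was higher in all 15 clone libraries than in any WT library. In CPM, counts scaled to library size with TMM factors, the WT libraries had 20.6, 25.3 and 21.8. Libraries reached 60.1, 62.7 and 67.1 CPM in clone 1.1, 39.1, 42.1 and 38.3 in clone 2.2, 69.6, 62.2 and 65.6 in clone 3.2, 45.1, 44.3 and 48.5 in clone 3.5, and 42.0, 45.3 and 42.3 in clone 3.6. The clones thus fall into a higher pair, 1.1 and 3.2, whose ranges overlap, and a lower trio, 3.5, 3.6 and 2.2, in which each overlaps the next. In log2 fold change over WT, the quantity in which clones are compared throughout, TNFAIP3 ranged from 0.81 (SE 0.07) in clone 2.2 to 1.54 (0.07) in clone 3.2. In LoVo the control-labelled libraries had 74.3, 69.9 and 70.7 CPM and the shRNA-labelled ones had 22.8, 20.7 and 21.7, a log2 difference of -1.69 (SE 0.07). The shRNA-labelled LoVo libraries overlapped MDST8 WT, the lowest of the MDST8 groups. TNFAIP3 lies on chromosome 6 from 137867214 to 137883314, and 1.49% of its exon bases are shared with WAKMAR2 on the opposite strand, where fragments were not counted for either gene because strand was not used.

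MIR3142HG had the larger relative difference of this pair and the lower level. WT libraries held 28, 36 and 40 counts (1.48, 1.82 and 2.02 CPM), whereas the clone libraries held from 114 counts in clone 3.5 to 264 in clone 3.2. Mean levels were 11.7 ± 0.15 CPM (SD, n = 3) in clone 1.1, 10.8 ± 1.04 in clone 3.2, 8.95 ± 1.42 in clone 3.6, 7.90 ± 0.08 in clone 2.2 and 6.69 ± 0.68 in clone 3.5, against 1.77 ± 0.27 in WT. In that order the ranges of clones 1.1 and 3.2, 3.2 and 3.6, and 3.6 and 2.2 overlapped, and clone 3.5 stood below the others except for a library of clone 3.6 at 7.38 CPM. The log2 fold change ran from 1.90 (SE 0.16) in clone 3.5 to 2.71 (0.15) in clone 1.1. In LoVo the control-labelled libraries held 37, 38 and 42 counts and the shRNA-labelled ones held 12, 2 and 7. The LoVo ranges did not overlap, and the log2 difference was -2.46 (SE 0.40), the least precise of the 10 genes in LoVo. The level in control-labelled LoVo, 2.204 ± 0.24 CPM, overlapped that of MDST8 WT, whereas TNFAIP3 stood higher in that LoVo group than in any clone.

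**Figure D1:**
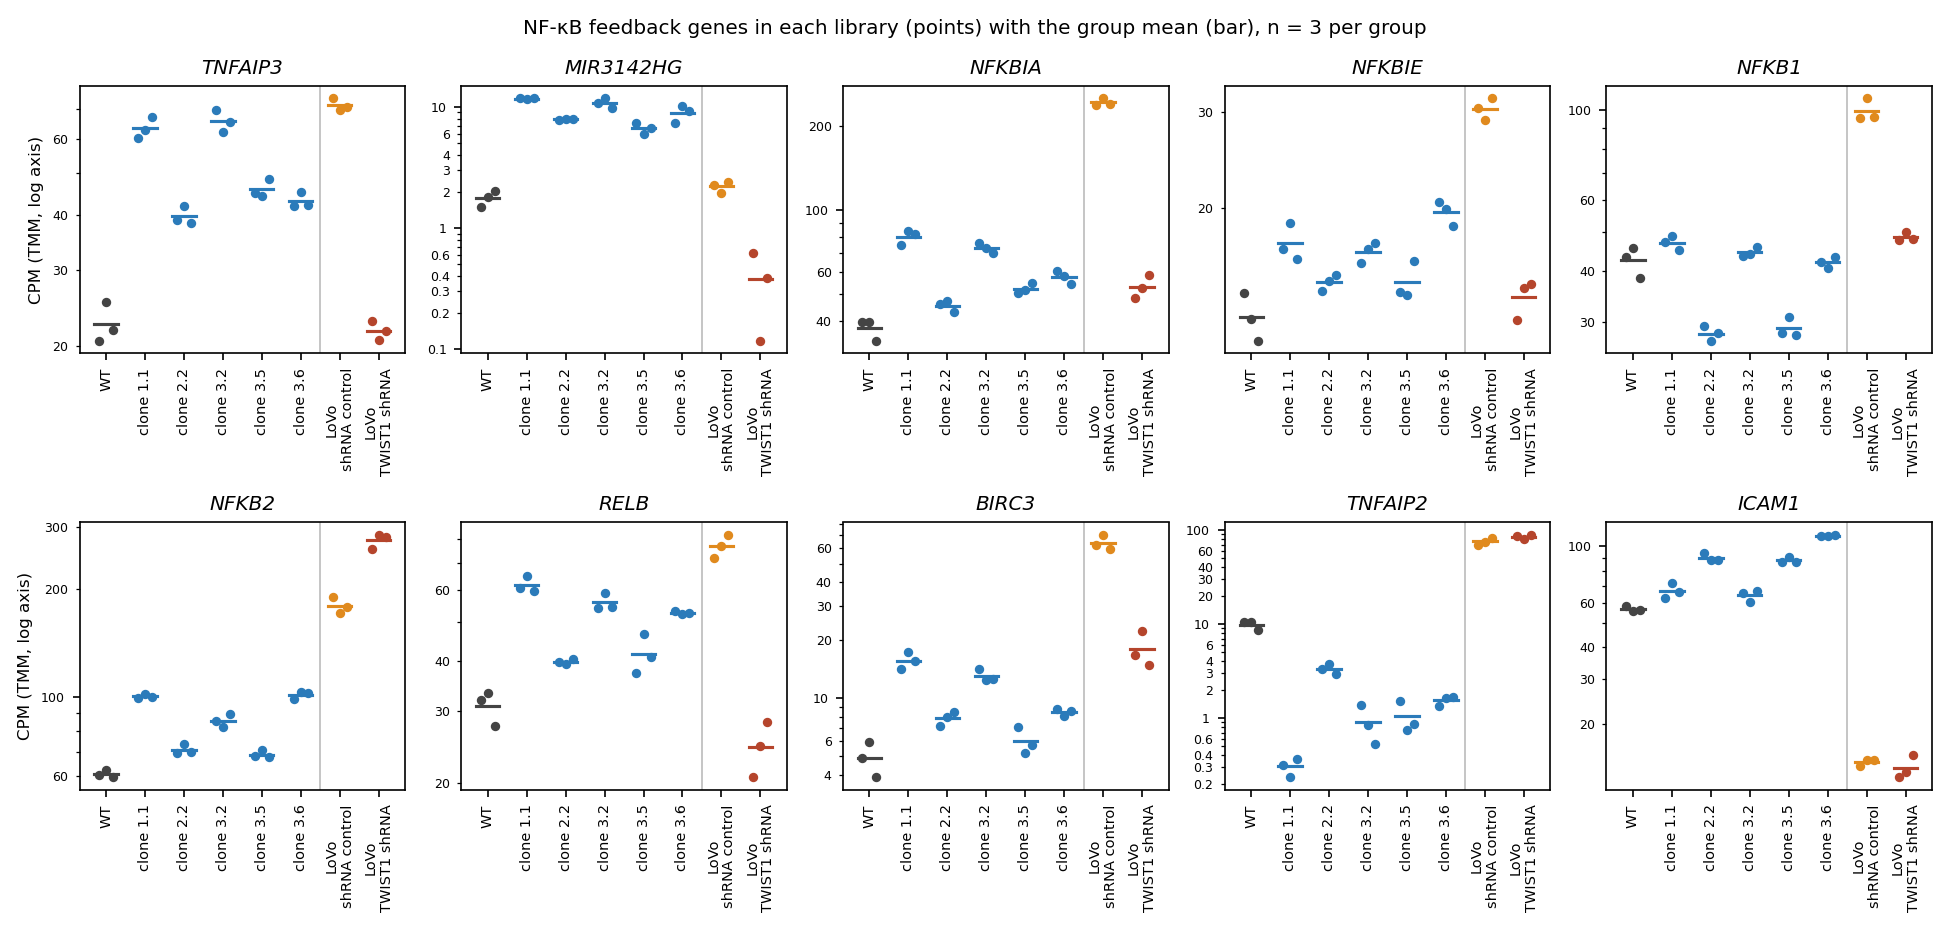
Level of each of the 10 genes in CPM scaled by TMM (log axis, a different range in each panel) for 3 libraries in each of 8 groups, with points for libraries and a bar for the group mean; the grey line separates MDST8 from LoVo. TNFAIP3 and MIR3142HG sit above WT in all 15 clone libraries, TNFAIP2 sits below WT in all 15, and NFKB1 is low in clones 2.2 and 3.5.

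Of the inhibitors, NFKBIA rose in 3 clones and NFKBIE in 1, and both were called lower in shRNA-labelled LoVo. NFKBIA, which encodes IκBα, had 39.7, 39.8 and 33.9 CPM in WT. It had 74.7, 84.1 and 82.2 CPM in clone 1.1, 46.1, 47.2 and 42.97 in clone 2.2, 76.5, 72.9 and 69.9 in clone 3.2, 50.5, 51.8 and 54.6 in clone 3.5, and 60.5, 58.1 and 54.4 in clone 3.6. All 15 clone libraries were above the highest WT library, and clones 1.1 and 3.2 again formed the highest pair. The share of all genes with all 15 clone libraries on 1 side of WT was not computed, here or for the genes below. Clone by clone, 61.1 to 70.5% of all genes tested had groups without overlap with WT. A gene is called here at an absolute log2 fold change above 0.58 with a Benjamini-Hochberg adjusted p below 0.05 in edgeR's quasi-likelihood test. On this rule NFKBIA rose in clones 1.1 (1.08, SE 0.06, adjusted p = 2.07e-17), 3.2 (0.95, 0.06, 1.17e-15) and 3.6 (0.61, 0.06, 6.91e-11), of which the last fell under the fold threshold without WT replicate C (0.55) or without clone 3.6 replicate A (0.57). Clones 2.2 and 3.5 had log2 fold changes of 0.26 and 0.46, with adjusted p = 0.000759 and 6.96e-08, below the fold threshold. In LoVo NFKBIA had 238 to 252 CPM in the control-labelled libraries and 48.6 to 58.4 in the shRNA-labelled ones, a log2 ratio of -2.17 (SE 0.07, adjusted p = 3.41e-14).

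NFKBIE, which encodes IκBε, ranged from 11.4 to 13.9 CPM in WT and from 13.8 to 20.5 CPM over the clone libraries, of which 14 of 15 lay above all WT libraries. It rose only in clone 3.6, at 18.5 to 20.5 CPM, with a log2 ratio of 0.64 (SE 0.09, adjusted p = 4.39e-08). In the other 4 clones its log2 fold change was 0.20 to 0.45, and neighbouring clones in the order of its level overlapped from clone 3.6 down to clone 2.2, the clone with the lowest mean. The LoVo libraries had 29.0 to 31.8 CPM when control-labelled and 12.4 to 14.5 when shRNA-labelled, a log2 ratio of -1.12 (SE 0.09, adjusted p = 1.19e-08).

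The REL family subunits did not move as a block. RELB, the subunit that pairs with the product of NFKB2 in the noncanonical pathway, followed the order of NFKBIA. It had 27.5 to 33.3 CPM in WT, 59.7 to 65.0 in clone 1.1, 54.2 to 59.0 in clone 3.2, 52.4 to 53.2 in clone 3.6, 37.4 to 46.7 in clone 3.5 and 39.4 to 40.4 in clone 2.2. All 15 clone libraries were above WT, and RELB rose in clones 1.1 (log2 fold change 0.99, SE 0.07, adjusted p = 3.00e-15), 3.2 (0.85, 0.07, 2.58e-13) and 3.6 (0.77, 0.07, 1.87e-12). NFKB2, the precursor of the noncanonical pathway, had 59.3 to 62.4 CPM in WT and its 15 clone libraries, 67.7 to 103 CPM, were all higher. NFKB2 rose in clone 1.1 (0.73, 0.04, 1.26e-16) and clone 3.6 (0.74, 0.04, 3.17e-17), while clones 3.2, 2.2 and 3.5 had log2 fold changes of 0.49, 0.22 and 0.18.

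NFKB1, the precursor of the canonical pathway, went against that pattern. Its libraries were at 43.3, 45.6 and 38.6 CPM in WT, at 29.3, 26.9 and 28.1 in clone 2.2, and at 28.2, 30.9 and 27.8 in clone 3.5. Both clones lay wholly below WT. NFKB1 fell in clone 2.2 with a log2 ratio of -0.61 (SE 0.06, adjusted p = 2.91e-10), a size that dropped under the threshold without WT replicate B (-0.54) or without clone 2.2 replicate B (-0.576). Clone 3.5 had -0.56 (SE 0.06, adjusted p = 1.53e-09), just short of the threshold, and passed it without WT replicate C (-0.61) or without clone 3.5 replicate B (-0.61). Clones 1.1, 3.2 and 3.6, at 45.1 to 48.7, 43.6 to 45.9 and 40.7 to 43.3 CPM, overlapped WT, with log2 fold changes of 0.14, 0.06 and -0.01.

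LoVo separated the subunits in another way. NFKB2 was higher in the shRNA-labelled libraries, 260.5 to 285 CPM against 171 to 190.0, with a log2 ratio of 0.64 (SE 0.06, adjusted p = 5.72e-08). RELB was lower there, 20.6 to 28.2 against 72.1 to 82.2 CPM, at -1.63 (SE 0.09, adjusted p = 9.28e-11). NFKB1 was lower as well, 47.7 to 49.9 against 95.6 to 107 CPM, at -1.004 (SE 0.06, adjusted p = 3.78e-10). NFKB2 was the only one of the 10 genes called higher in the shRNA-labelled libraries.

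BIRC3, a ubiquitin ligase of the TNF receptor complex that also restrains cell death, was low in MDST8. Its libraries had 4.92, 5.91 and 3.88 CPM in WT, 14.2, 17.3 and 15.6 in clone 1.1, 7.16, 7.99 and 8.51 in clone 2.2, 14.2, 12.4 and 12.6 in clone 3.2, 7.09, 5.18 and 5.69 in clone 3.5, and 8.78, 8.07 and 8.57 in clone 3.6. Clone 3.5 overlapped WT and the other 4 clones did not. BIRC3 rose in clones 1.1 (log2 fold change 1.67, SE 0.13, adjusted p = 1.03e-13), 3.2 (1.41, 0.13, 1.46e-11), 3.6 (0.79, 0.14, 3.92e-06) and 2.2 (0.67, 0.14, 9.03e-05), and the call in clone 2.2 was lost without WT replicate C (0.54). Clone 3.5 had 0.27 (SE 0.15, adjusted p = 0.102), with 0.14 without WT replicate C, 0.15 without clone 3.5 replicate A and 0.44 without WT replicate B. In LoVo it had 59.2 to 70.6 CPM in the control-labelled libraries and 14.9 to 22.3 in the shRNA-labelled ones, a log2 ratio of -1.81 (SE 0.11, adjusted p = 3.16e-10).

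TNFAIP2, a TNF-induced gene linked to membrane protrusions, moved opposite to TNFAIP3 in MDST8. WT libraries held 200, 206 and 170 counts. Clone 1.1 held 6, 5 and 7 counts, clone 2.2 held 64, 78 and 55, clone 3.2 held 25, 19 and 11, clone 3.5 held 26, 14 and 17, and clone 3.6 held 30, 33 and 36. All 15 clone libraries were below WT, and clone 1.1 stood below the other 4 clones and clone 2.2 above them. TNFAIP2 fell in every clone, with log2 fold changes of -5.00 (SE 0.28, adjusted p = 4.69e-17) in clone 1.1, -3.45 (0.23, 6.10e-15) in clone 3.2, -3.26 (0.23, 2.42e-14) in clone 3.5, -2.66 (0.21, 1.98e-13) in clone 3.6 and -1.57 (0.19, 1.17e-08) in clone 2.2. It was thus the only one of the 8 genes called in the same direction in all 5 clones, each against the same WT libraries. That pattern was shown downward by 1.06% of the genes tested in MDST8 and upward by 3.17%. In LoVo TNFAIP2 was well expressed, at 69.1 to 82.2 CPM in the control-labelled libraries and 80.2 to 89.4 in the shRNA-labelled ones, and with a log2 ratio of 0.20 (SE 0.07, adjusted p = 0.0169) it was not called.

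ICAM1, a cell surface adhesion molecule bound by leukocyte integrins, had its own order of clones. It had 58.2, 55.5 and 56.3 CPM in WT, 109.1 to 111 in clone 3.6, 88.0 to 93.8 in clone 2.2, 86.8 to 90.5 in clone 3.5, 62.7 to 71.9 in clone 1.1 and 60.5 to 66.7 in clone 3.2. Clones 1.1 and 3.2, the highest for TNFAIP3, were here the lowest clones, although all 15 clone libraries were above WT. ICAM1 rose in clones 3.6 (log2 fold change 0.96, SE 0.05, adjusted p = 7.01e-19), 2.2 (0.66, 0.05, 9.95e-14) and 3.5 (0.63, 0.05, 2.22e-13), with the call in clone 3.5 lost by limma on log2 values (0.57), and had 0.23 and 0.18 in clones 1.1 and 3.2. LoVo libraries had 13.7 to 14.5 CPM when control-labelled and 12.3 to 15.1 when shRNA-labelled, ranges that overlap, with a log2 ratio of -0.05 (SE 0.11, adjusted p = 0.700). Of the exon bases of ICAM1, 25.4% are shared with ICAM4-AS1 and LIMASI on the opposite strand, the largest share among the 10 genes, and fragments there were not counted.

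Counted over the 8 genes, 4 rose and 1 fell in clone 1.1, where 12% of all genes tested in MDST8 rose and 7.49% fell. In clone 2.2, 2 rose and 2 fell (all genes 8.05% and 6.64%), and in clone 3.2, 3 rose and 1 fell (10.9% and 6.09%). In clone 3.5, 1 rose and 1 fell (11.2% and 7.25%), a share close to that of all genes. In clone 3.6, 6 rose and 1 fell (15.3% and 11.7%), leaving NFKB1 alone uncalled. In either direction 27% of all genes were called in clone 3.6, the most of the clones. The median log2 fold change of the 8 genes was 0.59, 0.24, 0.45, 0.24 and 0.69 in clones 1.1, 2.2, 3.2, 3.5 and 3.6, while the median over all genes tested was -0.01, -0.01, -0.01, 0.00 and 0.00. Groups without overlap were found for 7, 8, 7, 6 and 7 of the 8 genes, beside 65.8, 61.1, 64.5, 64.4 and 70.5% of all genes. All 10 genes passed the filter on low counts in both cell lines. An exact two-sided permutation test on any of these genes, with 3 libraries against 3, cannot give a p below 0.10.

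**Figure D2:**
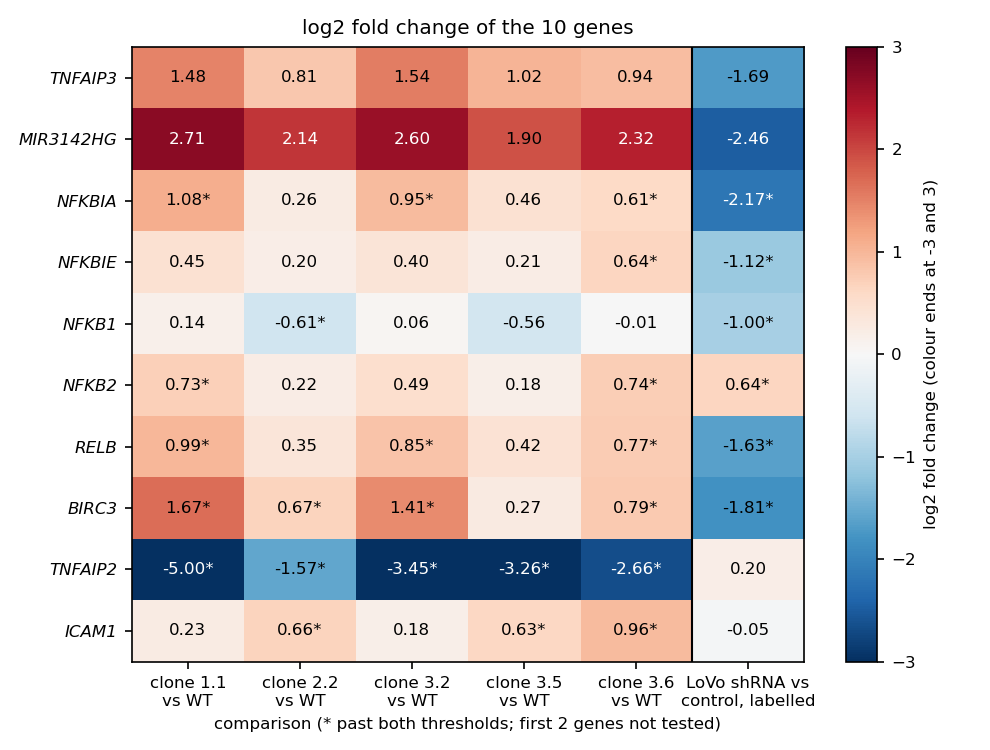
Log2 fold change of the 10 genes (rows) in the 5 clones over WT and in shRNA-labelled LoVo libraries over the control-labelled ones (columns), with red for higher, blue for lower and an asterisk for a value past both thresholds; TNFAIP3 and MIR3142HG carry no asterisk because they were not tested. Rows of NFKBIA, RELB and BIRC3 are red in the clones and blue in LoVo, and the row of TNFAIP2 is blue in the clones, from -5.00 to -1.57.

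The level of each of the 8 genes differed among the 5 clones in the F test over the clones, with adjusted p from 1.07e-16 for ICAM1 to 5.70e-05 for NFKBIE by edgeR's quasi-likelihood test. Of all genes tested in MDST8, 81% differed among the clones on this test. The range of log2 fold changes over the clones was widest for TNFAIP2, 3.43, followed by BIRC3, 1.40, and narrowest for NFKBIE, 0.44. The 3 clones labelled TG3 did not share a profile, since clone 3.2 had the highest mean TNFAIP3 level of the clones and clone 3.5 the lowest mean MIR3142HG level, and NFKB1 lay below WT in clone 3.5 and overlapped it in clones 3.2 and 3.6.

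In LoVo, 5 of the 8 genes were called lower among shRNA-labelled libraries and 1 higher, where 26.1% of all genes tested were lower and 26.6% higher, 52.7% in either direction. Their median log2 fold change was -1.06, against 0.01 for all genes tested. Groups did not overlap for 6 of the 8, and for 79.6% of all genes. The LoVo difference was then set against the mean difference of the 5 clones in a fit of all 24 libraries and tested. The 2 arms differ in the cell line and in how TWIST1 was targeted, and these cannot be told apart. LoVo minus clones came to -2.86 on the log2 scale for NFKBIA (SE 0.08, adjusted p = 2.77e-25) and to -2.79 for BIRC3 (0.16, 1.45e-16). TNFAIP2 differed in the other direction, at 3.37 (SE 0.15, adjusted p = 6.76e-20). The adjusted p was below 0.05 for all 8 genes and for 79% of the 12132 genes tested, with NFKB2 the smallest at 0.15 (SE 0.06, adjusted p = 0.0156). The call on NFKB2 was lost in 9 of 30 alternatives, with adjusted p up to 0.302, among them without LoVo labelled shRNA control replicate B (adjusted p = 0.153), without its replicate C (0.0621), without LoVo labelled TWIST1 shRNA replicate 2 (0.0570) and without MDST8 WT replicate B (0.0558).

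Because TWIST1 counts run against the LoVo labels, the contrast was also computed with the LoVo direction reversed, a choice made after seeing the data. In that direction the LoVo difference exceeded the mean clone difference by 1.497 for NFKBIA, 1.20 for NFKB1, 0.95 for RELB, 0.84 for BIRC3 and 0.74 for NFKBIE on the log2 scale, whereas ICAM1 and NFKB2 came to -0.48 and -1.11. TNFAIP2 stayed far apart, at 2.99 in place of 3.37. TNFAIP3 and MIR3142HG, not tested, came to 0.53 and 0.12. The value is thus nearer 0 after reversal for NFKBIA, NFKBIE, RELB and BIRC3, a little nearer for TNFAIP2 and ICAM1, and farther from 0 for NFKB1 and NFKB2.

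The rest of the pathway was read from 87 other genes in 5 lists by role, of which 70 passed the filter on low counts in MDST8 and 75 in LoVo. These lists too were drawn up with earlier results of these data known. In clones 1.1, 2.2, 3.2, 3.5 and 3.6 the test called 16, 13, 15, 13 and 16 of the 70 higher (22.9, 18.6, 21.4, 18.6 and 22.9%) and 3, 5, 1, 5 and 3 lower (4.29, 7.14, 1.43, 7.14 and 4.29%). Among all genes tested, 12, 8.05, 10.9, 11.2 and 15.3% were higher and 7.49, 6.64, 6.09, 7.25 and 11.7% lower. The median log2 fold change of the 70 was 0.18, 0.07, 0.08, 0.10 and 0.13. In LoVo 16 of 75 were called higher (21.3%) and 35 lower (46.7%) in the shRNA-labelled libraries, beside 26.6% and 26.1% of all genes, with a median of -0.50. Just 7 genes were called in the same direction in all 5 clones, each of them higher, namely IL1A, IL1B, TLR2, TLR4, TRAF1, CCL2 and IRF1. Of these, TRAF1 passed the filter on low counts only through its level in the clones. Over all genes tested, 3.17% were called higher in all 5 clones and 1.06% lower.

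Receptors and ligands held 4 of these 7, with 12 genes tested in MDST8. TLR4, the receptor for bacterial lipopolysaccharide, had 5.39 ± 0.31 CPM (SD, n = 3) in WT and between 14.7 ± 1.89 in clone 2.2 and 47.0 ± 3.48 in clone 3.6, with log2 fold changes of 1.44 to 3.12. TLR2, which senses bacterial lipopeptides, rose by 1.20 to 2.25 and was lower in shRNA-labelled LoVo by a log2 ratio of -3.22. IL1B, a cytokine that activates NF-κB, rose from 19.8 ± 1.31 CPM in WT to between 33.8 ± 3.88 and 44.4 ± 6.37 in the clones, and its LoVo log2 fold change was -1.83. In shRNA-labelled LoVo TLR2 averaged 0.66 CPM (5 to 19 counts) and IL1B 0.83 (14 to 16 counts), below the filter of 1 RPM. Both passed it in LoVo through the control-labelled libraries, at 6.35 and 3.02 CPM, so their LoVo values are a description. IL1A, the related cytokine, rose by 0.62 to 1.16. In this list 5, 4, 5, 4 and 7 genes were higher and 2, 2, 0, 1 and 0 lower in clones 1.1, 2.2, 3.2, 3.5 and 3.6, that is 33.3 to 58.3% higher beside 8.05 to 15.3% of all genes.

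Most adaptors and kinases were not called. Of 21 tested, 2 or 3 were higher in each clone (9.52 or 14.3%, where 8.05 to 15.3% of all genes were) and at most 1 was lower. TRAF1, an adaptor that binds TNF receptors, had 0.82 ± 0.10 CPM (SD, n = 3) in WT and 1.54 ± 0.07 to 5.78 ± 0.83 in the clones, with log2 fold changes of 0.90 to 2.81. With 14 to 18 counts in WT it lay below the filter of 1 RPM there and passed through its level in the clones. Its calls are thus a description, since at its WT level in every group it would not have been tested. IKBKE, a kinase related to the IκB kinases, rose in 4 clones, with 0.34 in clone 2.2, and was lower by -1.14 in shRNA-labelled LoVo. In LoVo 8 of the 21 were lower in those libraries (38.1%) and 1 was higher (4.76%), beside 26.1% and 26.6% of all genes.

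IRAK1 and TRAF6 are the textbook targets of miR-146a. IRAK1 had 618 ± 19.1 CPM (SD, n = 3) in WT, 698 ± 18.8 in clone 1.1, 455 ± 9.33 in clone 2.2, 368 ± 8.01 in clone 3.2, 468 ± 6.78 in clone 3.5 and 386 ± 7.21 in clone 3.6. In clones 1.1, 2.2 and 3.5 its log2 fold changes were 0.17, -0.45 and -0.41, short of the fold threshold. IRAK1 was called lower in clones 3.2 (log2 fold change -0.75) and 3.6 (-0.68), and in shRNA-labelled LoVo (-0.84). TRAF6 had log2 fold changes of -0.17 to 0.06 in the clones and -0.83 in shRNA-labelled LoVo. Mature miR-146a was not measured, and a link of either gene to MIR3142HG was not tested.

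Among the 6 other subunits and cofactors, BCL3, a nuclear IκB protein, rose in clones 1.1 (log2 fold change 0.78), 2.2 (0.71) and 3.6 (0.75). It was called lower in shRNA-labelled LoVo (-0.65). In that comparison 3 of the 6 were lower (50%) and 2 higher (33.3%), beside 26.1% and 26.6% of all genes, with a median of -0.43. NFKBIB, the gene for IκBβ, was called lower in clone 3.6 (-0.75) and higher in shRNA-labelled LoVo (1.31), the reverse of NFKBIA in both comparisons. NFKBID, another nuclear IκB protein, rose in clone 2.2 (0.5804, just past the threshold) and was higher in shRNA-labelled LoVo (0.68). Of 12 negative regulators tested, 2, 0, 2, 2 and 0 were higher in the clones in the order above and none was lower, at most 16.7% beside 8.05 to 15.3% of all genes higher. TNIP1, a binding partner of the TNFAIP3 protein, had 105 ± 7.03 CPM (SD, n = 3) in WT and 149 ± 4.12 to 184 ± 3.13 in the clones and rose in clones 1.1, 3.2 and 3.5, while in LoVo it was lower in the shRNA-labelled libraries by a log2 ratio of -2.002. ZC3H12A, an RNase that degrades cytokine mRNAs, rose in the same 3 clones, by 1.06, 1.02 and 0.69, and was at -1.19 in LoVo. OTULIN, a deubiquitinase of linear chains, had -0.10 to -0.23 in the clones and -1.11 in LoVo.

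Other targets of NF-κB were split. Of 19 tested in MDST8, 6, 4, 6, 5 and 6 were higher and 1, 3, 0, 4 and 1 lower in clones 1.1, 2.2, 3.2, 3.5 and 3.6, that is 21.1 to 31.6% higher and up to 21.1% lower, beside 8.05 to 15.3% and 6.09 to 11.7% of all genes. CCL2, a monocyte chemokine, rose from 100.2 ± 7.73 CPM (SD, n = 3) in WT to between 166 ± 5.92 in clone 3.6 and 357 ± 26.5 in clone 1.1. IRF1, an interferon-related transcription factor, had 28.0 ± 1.64 CPM in WT and 50.4 ± 2.84 to 63.9 ± 4.45 in the clones, and its LoVo log2 fold change was -1.03. TNFRSF9, a receptor of the TNF family, rose in 4 clones by 0.78 to 1.80 but was lower in clone 2.2 (-0.76).

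**Figure D3:**
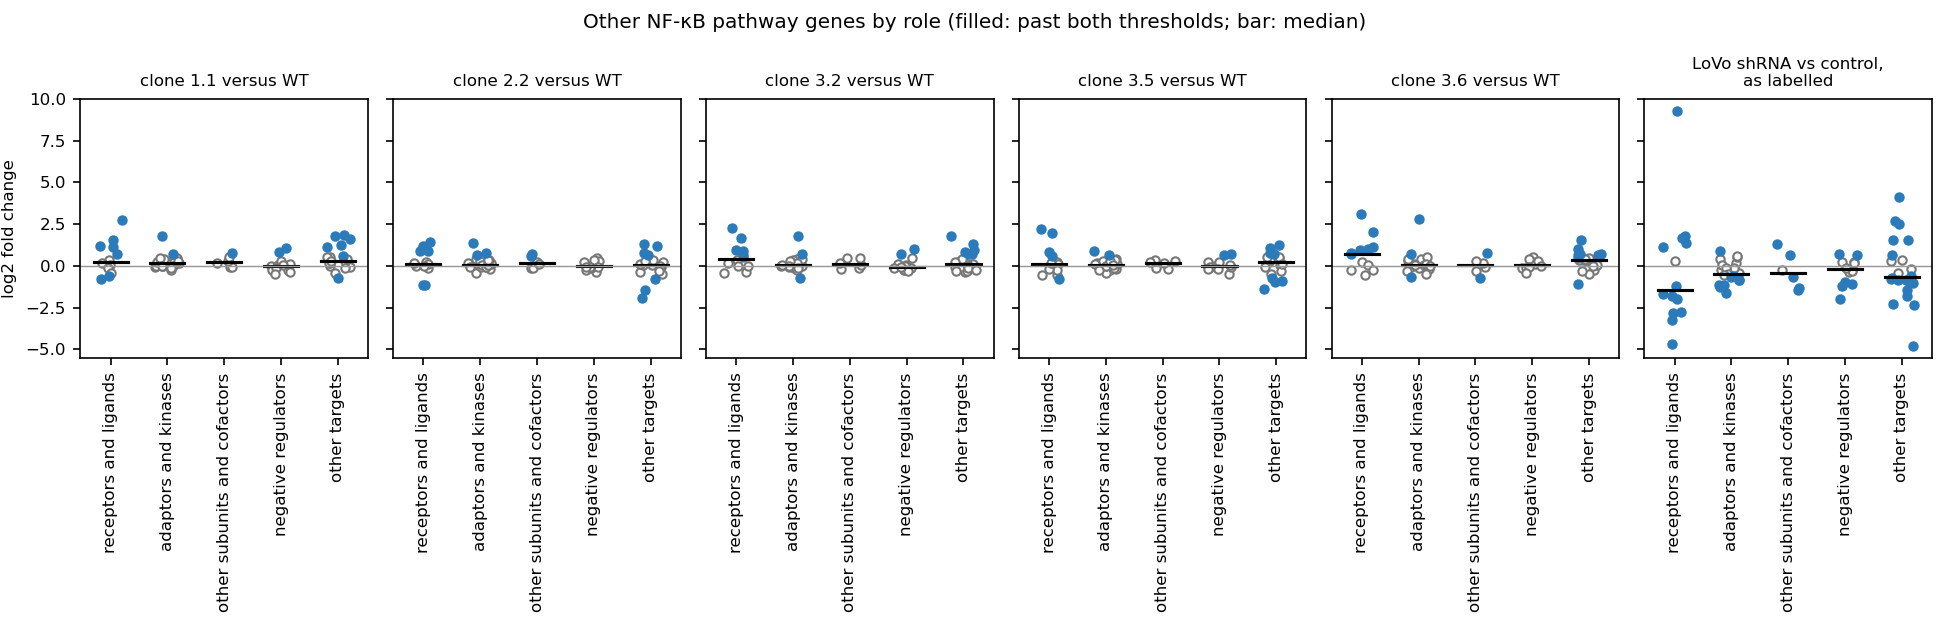
Log2 fold change of the other NF-κB pathway genes in 5 lists by role, 1 panel for each comparison; each point is a gene, filled where it passed both thresholds, and the black bar is the median of the list. Medians in the clones lie between -0.04 and 0.43 except for receptors and ligands in clone 3.6, at 0.74, and lie below 0 for all 5 lists in LoVo.

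TWIST1 peaks near these genes are described without a test, and the enrichment and q-values of all listed peaks were not set beside theirs. Within 3000 bp of the 5′ end, 7 of the 10 genes had a peak in the MDST8 list and 5 in the LoVo list, where 76.5% and 58.2% of all genes tested in each line had one. The 15 peaks had fold enrichments of 1.89 to 3.597 over the local background, and none reached a q-value of 0.05, the lowest being 0.132. That peak was in MDST8 at ICAM1, chr19:10270284-10270795, with its summit at -393 bp from the 5′ end and a fold enrichment of 3.597. TNFAIP3 had an MDST8 peak at chr6:137869060-137869437, with its summit 2084 bp inside the gene and a q-value of 1, and a LoVo peak with its summit at -549 bp from it. MIR3142HG had a single MDST8 peak at chr5:160440056-160440456, with a q-value of 0.820, and no LoVo peak near the 5′ end given by the count table. Measured from RefSeq starts instead, a choice made after seeing the data, MIR3142HG had a peak in the LoVo list too. From these starts 7 of 8 genes in MDST8 and 6 in LoVo had one, and the share of all RefSeq starts with a peak was not computed. NFKBIE, RELB and BIRC3 had none in either list within 3000 bp of the 5′ end in the count table. Peaks of the 2 lists overlapped at NFKB1 and ICAM1, and the share of all genes with such an overlap was not computed. Each list came from 1 ChIP library, so the peaks have no replicate check.

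**Figure D4:**
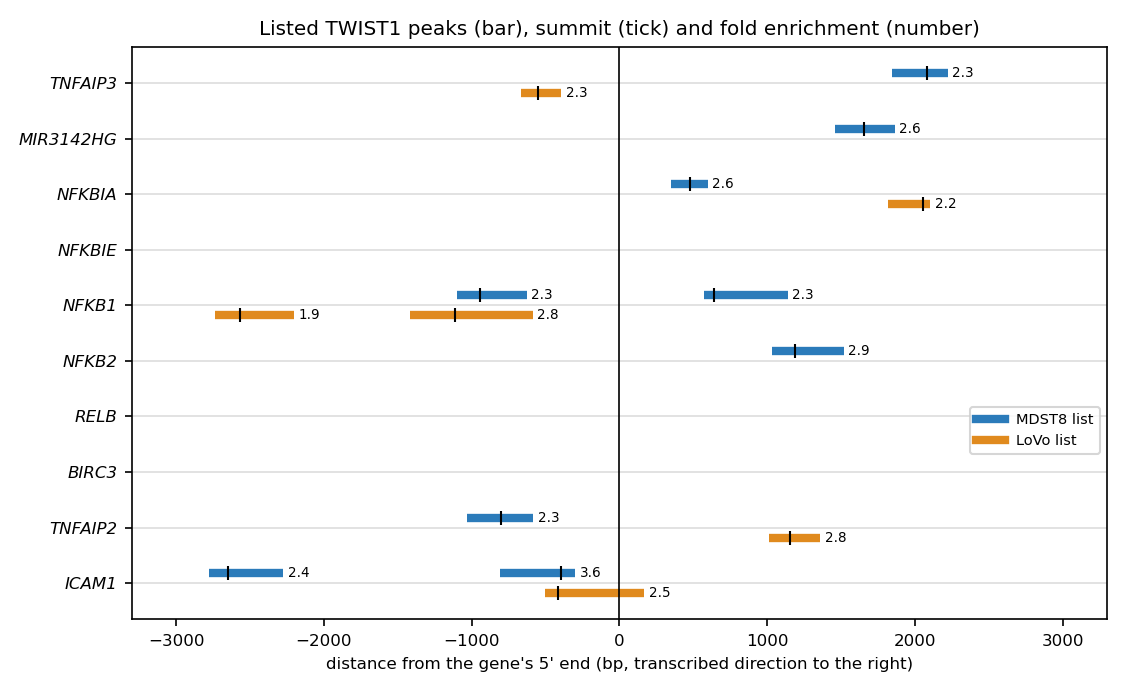
Listed TWIST1 peaks within 3000 bp of the 5′ end of each gene (distance in bp, transcribed direction to the right), with a bar for the peak, a tick for its summit and its fold enrichment beside it, in blue for MDST8 and orange for LoVo. The highest enrichment, 3.597, is at ICAM1 in MDST8, and NFKBIE, RELB and BIRC3 have no peak.

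Likeness to TNFAIP3 was measured by Pearson's r of mean log2 CPM over the 6 MDST8 groups, a description in which all genes share the same libraries. The 5 genes most like TNFAIP3 were ZNF446, IGSF1, TTC28, KIZ and ALPK2, with r from 0.986 to 0.998, and those most like MIR3142HG were PLEKHG1, DCTN4, ZNF425, TRPV4 and KLHL20, with r from 0.991 to 0.999. Over so few points the choice of measure decides the names, since Spearman's rho over the 18 libraries named 0 of the same 5 in either case. Of the 10 genes, NFKBIA and MIR3142HG ranked 119 and 121 of 13706 genes for likeness to TNFAIP3, with r = 0.94 each. By Spearman's rho they ranked 20 and 309. MIR3142HG and TNFAIP3 were both chosen for their rise in every clone, so their likeness is partly set by that choice. RELB had an r of 0.92, BIRC3 0.87, NFKB2 0.72, NFKBIE 0.67, NFKB1 0.19 and ICAM1 0.13, while TNFAIP2 had -0.95. Spearman's rho was 0.92 for NFKBIA, 0.82 for RELB, 0.79 for MIR3142HG, 0.76 for BIRC3 and 0.62 for NFKB2. It was 0.54 for NFKBIE, 0.44 for NFKB1, -0.03 for ICAM1 and -0.83 for TNFAIP2.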

How the data were processed

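RNA was isolated from MDST8 and LoVo cells, mRNA was purified with oligo-dT and sequenced in 24 libraries (total counts are given above). The authors trimmed reads with Trim Galore 0.6.6, aligned them with HISAT2 2.1.0, sorted them with SAMtools 1.6 and deposited raw fragment counts per gene from featureCounts 2.0.0 (GENCODE v43, hg38), counted without strand. The deposited tables also hold the exon length of each gene, which was used here only for overlaps and identity. ChIP-seq reads were aligned by the authors with Bowtie2 2.4.5, and the deposited MACS2 2.2.7.1 peak lists give a score, a fold enrichment ratio, and -log10 p-values and q-values for each peak. Whether the input library served as the MACS2 control is not given in the sources used here.

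Tests used edgeR 4.0.16 (quasi-likelihood, TMM) in R 4.3.3, with the 18 MDST8 libraries in 1 fit, the 6 LoVo libraries in another, and all 24 for the difference between the LoVo and MDST8 contrasts. Genes with a geometric mean of at least 1 RPM (offset 1) were tested, 13706 in MDST8, 14270 in LoVo and 12132 over both. A call required both an adjusted p (Benjamini-Hochberg) below 0.05 and an absolute log2 ratio over 0.58. The standard error (SE) is the fold change over the square root of its F statistic. Printed CPM values were scaled by TMM over all 24 libraries. DESeq2 1.42.0, limma 3.58.1, other scalings and filters, and leaving out each library were the alternatives. The fits were tested on simulated counts.

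The 10 genes and the pathway lists were chosen with earlier results of these data known. Pathway genes are named where called the same way in all 5 clones, where among the 3 of their list called most often, or as targets of miR-146a (IRAK1, TRAF6). Replicate letters were not taken to pair libraries across groups. No pair of replicate libraries had identical counts.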

Additional observations from a re-analysis of the deposited data

Results flagged for a closer look

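The LoVo difference, taken in the direction of the labels, and the mean difference of the 5 clones from WT differed for each of the 8 tested genes in the fit of all 24 libraries by edgeR's quasi-likelihood test, as did the values of 79% of the 12132 genes tested. LoVo minus clones came to -2.858 for NFKBIA (adjusted p = 2.77e-25), -2.791 for BIRC3 (1.45e-16), -2.324 for RELB (9.04e-20) and -1.524 for NFKBIE (3.42e-14) on the log2 scale. It came to -0.8283 for NFKB1 (6.91e-12) and -0.599 for ICAM1 (4.66e-07), and was above 0 for TNFAIP2, at 3.369 (6.76e-20), and NFKB2, at 0.1511 (0.0156), a call lost in 9 of 30 alternatives (adjusted p 0.000332 to 0.302). For TNFAIP3 and MIR3142HG the values were -2.866 and -4.811; every clone library lay above WT and every LoVo library labelled TWIST1 shRNA lay below those labelled shRNA control, and this difference was not tested. TWIST1 counts run against the LoVo labels, and the values with the LoVo direction reversed are given in the report.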

How the results depend on the processing

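With 1 library left out, 277 of 288 values of the 8 tested genes kept their direction and their side of the thresholds, and with all libraries kept 361 of 368 did. NFKB1 in clone 3.6, at -0.01, became 0.11 with limma on log2(count + 1) and ranged from -0.068 to 0.049 with 1 library left out. ICAM1 in LoVo, at -0.05, became 0.025 with limma on log2(CPM + 1) and ranged from -0.12 to 0.041 with 1 library left out. With limma on log2(CPM + 1), BIRC3 in clone 2.2 lost its call (0.57) and NFKB1 in clone 3.5 gained one (-0.59). The cause was not tested. In LoVo 6 of the 8 were called whichever library was left out, and MIR3142HG failed the filter on low counts without any 1 of the 3 labelled shRNA control libraries. NFKB2 lost its call between the LoVo and MDST8 contrasts in DESeq2 (adjusted p = 0.0684), with DESeq2's size factors (0.0596), with limma on log2(count + 1) (0.302), with no filter (0.236) and with filterByExpr (0.137), and the count of 8 genes became 7. Genes with a listed peak numbered 4 rather than 7 in the MDST8 list and 3 rather than 5 in the LoVo list within 1000 bp, 2 and 3 at p of at most 0.001, and 0 and 0 at q of at most 0.05. Within 5000 bp they numbered 8 and 7, with RELB added in MDST8 and NFKBIE and NFKB2 in LoVo. Genes where the 2 lists overlap fell from 2 to 1 on requiring 50% of each peak. From RefSeq starts, available for 8 genes, 7 and 6 had a peak. The share of all genes was not computed for any of these alternative peak counts. A fit with the replicate letter as a replicate block called the same 5, 4, 4, 2 and 7 of the 8 tested genes and the same 19, 18, 16, 18 and 19 pathway genes in clones 1.1, 2.2, 3.2, 3.5 and 3.6. Same-letter libraries deviated together with correlations of only -0.105 to 0.12, so the letters were not taken as pairs. MIR3142HG, with 2 to 42 counts in LoVo, and TNFAIP2, with 5 to 7 in clone 1.1, are limited by depth.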
